A study of Mus musculus with 16 samples.

Results

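Smooth muscle contractile and mural genes were followed in bulk RNA-seq of cultured mouse hippocampal cells. The 10 genes Acta2, Tagln, Cnn1, Tpm1, Tpm2, Myh11, Myl9, Mylk, Des and Pdgfrb were taken by name from the 54532 genes of 2 count tables. The names, and those of the lists further below, were chosen with earlier results of these data known. Shares of these genes given beside the share of all genes are therefore a description. Each of 4 groups held 4 libraries: homozygous Shank3∆11(-/-) cells treated with lithium (KOLi), wild type cells treated with lithium (WTLi), homozygous Shank3∆11(-/-) cells given water as vehicle (KOVeh) and wild type cells given the same vehicle (WTVeh). All cells came from pups at postnatal day 1 to 2, were cultured for 14 days as a mixture of neurons and other brain cells, and received Li at a low concentration, or vehicle, from day 9. Hippocampi of several pups were pooled for a culture, and the Veh and the Li library of one genotype and replicate number were taken, from their titles, to share that source, so that the 16 libraries were counted as 8 cultures. The ∆11 allele removes only some Shank3 isoforms. The study's methods name mice of the background strain as controls and mention no littermates, so genotype and breeding line cannot be told apart.

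Smooth muscle cells contract when a rise in calcium activates myosin light chain kinase, which phosphorylates the regulatory light chain of myosin and lets its heads pull on actin filaments decorated with tropomyosin. The genes for these proteins are switched on by serum response factor, which binds the CArG box of their promoters and introns. It acts together with its cofactors, myocardin or the related MRTF proteins. In brain, arterioles carry smooth muscle cells, capillaries carry pericytes, and both are called mural cells. Several of the genes are also used by cells that are not mural: activated fibroblasts make alpha smooth muscle actin, and most cells use tropomyosins, light chain kinase and regulatory light chains outside of muscle.

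Promoter sequences are shown for Acta2 and Myl9, the 2 of the genes whose promoter window held a match to the CArG box, and for Cnn1, which had none there although its level followed that of Acta2 most closely. RefSeq promoters, on GRCm38.p6, were matched for 7 of the 10 genes, leaving Tagln, Myh11 and Pdgfrb. The CArG box is CC, then 6 bases of A or T, then GG, and reads the same on both strands. An exact match lay within the 300 bases around the start (250 before it and 50 after it) in 1.63% of 32851 promoters, and a match with 1 base of the centre being G or C in 8.5%. The start is that of the RefSeq promoter and differs from the gene starts printed further below. The lines of Myl9 and Cnn1 therefore run past those gene starts. Each line gives the 250 bases before the RefSeq start, read 5′ to 3′ on the gene's own strand, with matches in capitals. They lie at chr19:34255374-34255623 (minus strand) for Acta2, chr2:156775214-156775463 (plus strand) for Myl9 and chr9:22099003-22099252 (plus strand) for Cnn1.
Acta2: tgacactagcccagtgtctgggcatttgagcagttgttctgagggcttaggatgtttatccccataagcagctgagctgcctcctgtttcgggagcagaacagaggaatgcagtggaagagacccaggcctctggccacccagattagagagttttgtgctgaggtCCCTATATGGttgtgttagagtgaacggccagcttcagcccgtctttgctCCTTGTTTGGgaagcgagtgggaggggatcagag
Myl9: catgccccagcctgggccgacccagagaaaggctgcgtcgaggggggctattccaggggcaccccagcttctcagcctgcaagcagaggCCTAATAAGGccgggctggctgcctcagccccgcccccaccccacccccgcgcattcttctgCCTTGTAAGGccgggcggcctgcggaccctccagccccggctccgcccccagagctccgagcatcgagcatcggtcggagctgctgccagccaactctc
Cnn1: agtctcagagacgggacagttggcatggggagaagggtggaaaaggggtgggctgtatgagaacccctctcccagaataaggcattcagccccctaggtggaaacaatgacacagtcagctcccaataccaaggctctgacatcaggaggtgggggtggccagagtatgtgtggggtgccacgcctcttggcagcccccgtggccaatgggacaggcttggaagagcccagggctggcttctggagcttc
The Acta2 window held 2 boxes, both with 1 base of the centre being G or C. In the Myl9 window 1 box was exact and 1 had a replaced base. At least 2 boxes of either kind were found in 0.822% of all promoters. The windows of Cnn1, Tpm1, Tpm2, Mylk and Des held none of either kind, which says only that these letters are absent from the window, and no binding was measured in these data.

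Libraries held 16123067 to 35188300 counts (median 22041966). Shank3 in KO libraries was 0.367 to 0.403 times its level in the WT library of the same replicate number and treatment in replicates 1, 3 and 4, but 0.956 times in KOVeh and 0.845 times in KOLi for replicate 2. The libraries labelled KOVeh replicate 2 and KOLi replicate 2 thus do not show the drop, and the genotype comparisons of the 10 genes are given with and without replicate 2. Sequencing batch 2 held replicate 4 of every group, and batch 1 the rest. Neurons and astrocytes, the main cells such cultures hold, were marked by Snap25 at 498 to 1209 CPM and Gfap at 1243 to 5546 CPM over the 16 libraries. CPM are counts of a gene per 1000000 counts of its library, after scaling. Of the 14 listed pericyte markers, Kcnj8, Higd1b, Cox4i2 and Atp13a5 stayed under 0.5 CPM and Abcc9 reached 0.637 CPM, whereas Rgs5 was measured at 5.52 to 37.6 CPM and Vtn at 21.7 to 60.2 CPM.

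Set per kilobase of gene length, which makes genes comparable, the levels ran over a wide range. The means over all 16 libraries, in CPM per kilobase, were 49.7 for Tpm1, 35.6 for Acta2, 24.2 for Myl9, 4.85 for Pdgfrb, 3.27 for Tpm2, 2.02 for Cnn1, 0.914 for Tagln and 0.655 for Mylk. Myh11 at 0.0673 and Des at 0.0257 CPM per kilobase came last. The order of the first 3 genes changed between libraries: Acta2 ran between 1.37 and 126 CPM per kilobase, Tpm1 between 30.0 and 88.9, and Myl9 between 7.54 and 57.5. Likewise the ranges of Pdgfrb, Tpm2 and Cnn1 overlapped, as did those of Tagln and Mylk. The order did not hold in each library either: in KOVeh replicate 3, Acta2 at 1.37 CPM per kilobase lay below Pdgfrb at 2.31 and Tpm2 at 1.48, and Cnn1 at 0.0358 lay below Tagln, Mylk and Myh11. No library of Myh11 or Des reached the lowest level of Tagln or Mylk. Reads that fit Acta2 and its closely similar paralogs equally well may have been left out or split, which the sources used here do not state, so the level of Acta2 is uncertain to that extent.

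Of the 5 genes of the thin filament, Tpm2 alone passed the test in vehicle-treated cells with all 4 replicates. Acta2 (chr19:34241090-34255336, minus strand, GRCm38) encodes alpha smooth muscle actin. In CPM, and in the order of replicates 1 to 4, it was measured at 8.43, 79.1, 2.45 and 26.6 in KOVeh, against 52.0, 50.7, 41.2 and 149.8 in WTVeh. Under Li the values were 8.93, 133.6, 11.2 and 31.0 CPM in KOLi, against 39.4, 96.3, 58.2 and 225 CPM in WTLi. KO libraries of replicates 1, 3 and 4 lay below every WT library of both treatments. The libraries labelled KO replicate 2 lay above the WT libraries of their own replicate, and the groups therefore overlapped. The fitted log2 fold change of KOVeh over WTVeh was -2.06 ± 0.64 (SE; edgeR-adjusted p = 0.0402 over all 14783 genes tested), which misses the threshold of 0.01 used here. With replicates 1, 3 and 4 only it was -2.84 ± 0.32 (edgeR-adjusted p = 0.000903), which passes it. In bulk RNA, fewer cells of a type and less RNA per cell cannot be told apart.

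Cnn1 (chr9:22099216-22109630, plus strand) encodes calponin 1, an actin-binding protein that restrains myosin ATPase in smooth muscle. Its levels in replicates 1 to 4 were 0.515, 6.60, 0.0979 and 1.77 CPM in KOVeh, against 4.53, 4.22, 4.32 and 12.7 CPM in WTVeh. In Li-treated cells they were 0.566, 12.9, 0.716 and 1.67 CPM in KOLi, against 5.22, 8.97, 5.31 and 18.5 CPM in WTLi. The pattern was that of Acta2: KO replicates 1, 3 and 4 below every WT library, and the libraries labelled KO replicate 2 among or above them. Few reads stand behind the low values, since the library of KOVeh replicate 3 held 2 counts and that of WTVeh replicate 3 held 107, a ratio of 0.0227 with an exact 95% counting interval of 0.00271 to 0.0839. The fitted log2 fold change of KOVeh over WTVeh was -2.27 ± 0.75 (SE; edgeR-adjusted p = 0.0506) over 4 replicates and -3.26 ± 0.31 (edgeR-adjusted p = 0.000559) over replicates 1, 3 and 4.

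Tagln (chr9:45929619-45936058, minus strand) encodes transgelin, or SM22 alpha, an actin-binding protein of early smooth muscle. In replicates 1 to 4 it stood at 0.562, 1.75, 0.490 and 1.39 CPM in KOVeh, against 2.28, 1.67, 2.18 and 2.90 CPM in WTVeh. For KOLi the values were 0.881, 1.96, 1.01 and 1.46 CPM, against 1.81, 2.71, 1.49 and 4.54 CPM in WTLi. In both treatments the groups overlapped through the library labelled KO replicate 2 alone. Counts of Tagln were low, at 10 to 140 a library. The log2 fold change of KOVeh over WTVeh was -1.24 ± 0.32 (SE; edgeR-adjusted p = 0.0206), and -1.67 ± 0.30 (edgeR-adjusted p = 0.00421) without replicate 2. Exons of Tagln overlap those of Pcsk7 on the opposite strand, which held 24.2 to 31.9 CPM. No source used here says whether reads were counted by strand, and if they were not, reads of the overlap cannot be told apart.

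The tropomyosins lie along actin filaments and set where myosin can bind, in muscle and in other cells, and each gene gives muscle and non-muscle isoforms that counts per gene do not separate. Tpm1 (chr9:67022590-67049406, minus strand) was the most abundant of the 10 genes, with 240.4, 291, 195 and 259 CPM in KOVeh replicates 1 to 4, against 299.9, 333, 352 and 482 CPM in WTVeh. In KOLi it reached 244, 344, 232 and 293 CPM, against 284, 353, 379 and 577 CPM in WTLi. Tpm1 did not overlap between KOVeh and WTVeh, though the gap between the library labelled KOVeh replicate 2 and WTVeh replicate 1 was small, and it did overlap under Li. Its log2 fold change of KOVeh over WTVeh was -0.56 ± 0.15 (SE; edgeR-adjusted p = 0.0215), and without replicate 2 it was -0.67 ± 0.15 (edgeR-adjusted p = 0.00921).

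Tpm2 (chr4:43514711-43523765, minus strand) was the one gene of the set whose KOVeh and WTVeh levels were apart by a clear gap in all 4 replicates. It was measured at 5.53, 7.73, 4.31 and 6.54 CPM in KOVeh, against 11.8, 13.9, 10.9 and 11.3 CPM in WTVeh. With Li the levels were 8.37, 9.57, 6.03 and 6.68 CPM in KOLi, against 8.83, 12.2, 13.5 and 14.9 CPM in WTLi, and the groups overlapped. Tpm2 fell by 1.004 ± 0.17 on the log2 scale in KOVeh against WTVeh (SE; edgeR-adjusted p = 0.00372). Here the library labelled KO replicate 2 went with the other KO libraries, as Tpm2 fell by 1.05 ± 0.21 on the log2 scale without replicate 2 (edgeR-adjusted p = 0.00614).

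**Figure D1:**
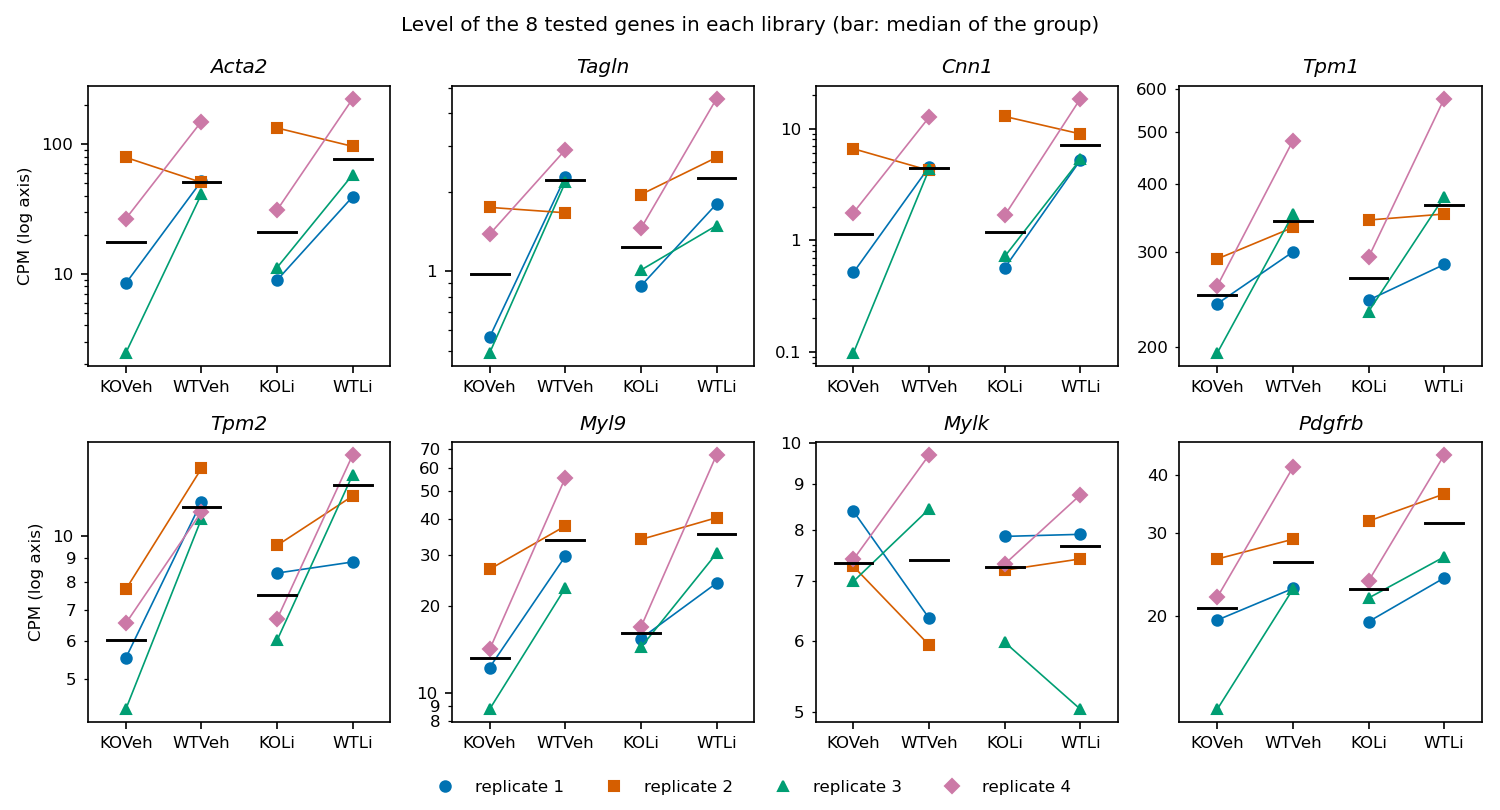
Level of the 8 tested genes in each library, in CPM on log axes that differ between panels. Symbols mark the replicate, lines join the KO and the WT library of one replicate and treatment, and black bars are group medians. Acta2 in KOVeh has a median of 17.5 CPM, against 51.3 CPM in WTVeh, and the squares of replicate 2 slope the other way from the other 3 replicates for Acta2 and Cnn1.

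Among the myosin genes, the regulatory light chain passed the test in vehicle-treated cells and the kinase did not. Myl9 (chr2:156775420-156781658, plus strand) encodes the regulatory light chain that the kinase phosphorylates in smooth muscle and in other contractile cells. It was found at 12.2, 26.8, 8.77 and 14.1 CPM in KOVeh replicates 1 to 4, against 29.7, 37.9, 23.1 and 55.6 CPM in WTVeh. In KOLi the levels were 15.4, 34.0, 14.4 and 16.9 CPM, against 24.01, 40.5, 30.4 and 66.8 CPM in WTLi. Within every replicate and treatment Myl9 was lower in the KO library, while the library labelled KO replicate 2 was the highest of its group both times and overlapped the WT libraries. Myl9 fell by 1.28 ± 0.26 on the log2 scale in KOVeh against WTVeh (SE; edgeR-adjusted p = 0.00686), and by 1.55 ± 0.24 without replicate 2 (edgeR-adjusted p = 0.00258).

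Mylk (chr16:34745210-35002420, plus strand) encodes the light chain kinase, in a long form used by many cells and a short form of smooth muscle, and counts per gene do not separate them. Its levels were 8.39, 7.28, 7.002 and 7.41 CPM in KOVeh replicates 1 to 4, against 6.37, 5.94, 8.44 and 9.70 CPM in WTVeh. With Li they were 7.86, 7.21, 5.98 and 7.32 CPM in KOLi, against 7.90, 7.42, 5.04 and 8.75 CPM in WTLi. The groups lay within one another, and the log2 fold change of KOVeh over WTVeh was -0.02 ± 0.17 (SE; edgeR-adjusted p = 0.957), with a sign that turned under some settings. Without replicate 2 it was -0.10 ± 0.19 (edgeR-adjusted p = 0.734). Exons of Mylk overlap 2 annotated genes on the opposite strand, whose levels were not analysed.

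Myh11 (chr16:14194535-14291372, minus strand), the myosin heavy chain of differentiated smooth muscle, was close to the limit of detection, with 6 to 31 counts a library. In CPM it was measured at 0.515, 0.674, 0.294 and 0.519 in KOVeh, against 0.300, 0.279, 0.323 and 0.890 in WTVeh. In Li-treated libraries it was at 0.377, 0.461, 0.295 and 0.569 CPM in KOLi, against 0.390, 0.664, 0.719 and 0.907 CPM in WTLi. Des (chr1:75360329-75368579, plus strand), the intermediate filament of muscle and of some pericytes, had 0 to 6 counts in KO libraries, against 0 to 8 counts in WT libraries. A count of 0 allows up to 3 counts, or 0.186 CPM in the smallest library. Both genes failed the filter on low counts and were left out of the main fit. In a fit with no such filter neither was called, in KOVeh against WTVeh or in KOLi against WTLi. With so few counts a difference between the groups may go undetected. The other 8 of the 10 genes passed the filter.

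Pdgfrb (chr18:61045150-61085061, plus strand) encodes the receptor for platelet-derived growth factor BB, by which endothelial cells recruit mural cells, and it is also made by fibroblasts. Its levels were 19.6, 26.5, 12.6 and 21.9 CPM in KOVeh replicates 1 to 4, against 22.9, 29.2, 22.8 and 41.5 CPM in WTVeh. With Li they were 19.4, 31.9, 21.8 and 23.7 CPM in KOLi, against 24.1, 36.4, 26.7 and 44.1 CPM in WTLi. Pdgfrb was lower in the KO library of every replicate and treatment, but the groups overlapped, and the log2 fold change of KOVeh over WTVeh was -0.53 ± 0.15 (SE; edgeR-adjusted p = 0.0315). Without replicate 2 it was -0.65 ± 0.17 (edgeR-adjusted p = 0.0213), which still misses the threshold.

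Over the set, the KOVeh against WTVeh comparison called 2 of the 8 tested genes, Tpm2 and Myl9, lower and 0 higher, where 3.42% of all tested genes were called lower and 2.08% higher. A gene was called at an edgeR-adjusted p under 0.01 and a fold above 1.2. All 8 log2 fold changes were below 0, with a median of -1.12, while the median of all tested genes was -0.01. Without replicate 2 of any group the calls numbered 6 of 8 lower, against 7.55% of all genes, and left out Mylk and Pdgfrb. On all 4 replicates DESeq2 called 6 of 8, against 7.54% of all genes called lower, and limma-voom called 1 of 8, against 3.02%. With culture as a random effect in limma-voom 1 of 8 was called, against 2.15%. Myl9 lost its call in limma-voom (adjusted p = 0.0107) and Tpm2 lost it with culture as a random effect (limma-voom adjusted p = 0.0101). The libraries of KOVeh and WTVeh did not overlap for Tpm1 and Tpm2, 2 of 8 genes, against 2.86% of all tested genes. Both calls made with 4 replicates depend on the replicate number as a term of the fit: without it 0 of 8 were called, with edgeR-adjusted p of 0.196 for Tpm2 and 0.309 for Myl9. Without that term 0 of all tested genes were called either, against 813 with it. Both were also lost when only the KOVeh and WTVeh libraries were fitted (edgeR-adjusted p = 0.0519 for Tpm2 and 0.0569 for Myl9) and in sequencing batch 1 alone (edgeR-adjusted p = 0.0195 for Tpm2 and 0.0217 for Myl9). Among all tested genes the first of these fits called 1 and the second 15. Leaving out 1 library ended the call of Tpm2 for KOVeh replicate 1, 3 or 4 and WTVeh replicate 1 or 3 (edgeR-adjusted p of 0.0116 to 0.0200), and that of Myl9 for the same libraries and WTVeh replicate 4 (0.0152 to 0.0309). These fits called 51 to 349 of all tested genes. Without WTVeh replicate 2, calls of Acta2, Tagln and Cnn1 were added (edgeR-adjusted p = 0.00708 for Acta2, 0.00509 for Tagln and 0.00853 for Cnn1). That fit called 1291 of all tested genes.

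In Li-treated cells the same genes had log2 fold changes of KOLi over WTLi between -1.98 for Cnn1 and -0.03 for Mylk, with a median of -0.83. Here 0 of 8 genes were called, against 3.6% of all tested genes called lower and 2.76% higher, and 7 of 8 had an unadjusted edgeR p under 0.05, as did 20.3% of all genes in the lower direction. DESeq2 called 3 of 8, against 8.11% of all genes called lower, and limma-voom called 0 of 8. Without replicate 2, 3 genes were called lower, against 7.54% of all genes. Of these Cnn1 fell by 3.23 ± 0.31 and Acta2 fell by 2.498 ± 0.31 on the log2 scale (SE; edgeR-adjusted p = 0.000545 for Cnn1 and 0.00118 for Acta2), and Myl9 fell by 1.27 ± 0.24 (edgeR-adjusted p = 0.00489). KO and WT libraries did not overlap for 0 of 8 genes, against 2.5% of all genes, and for 6 of 8 genes without replicate 2, against 16.5%.

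**Figure D2:**
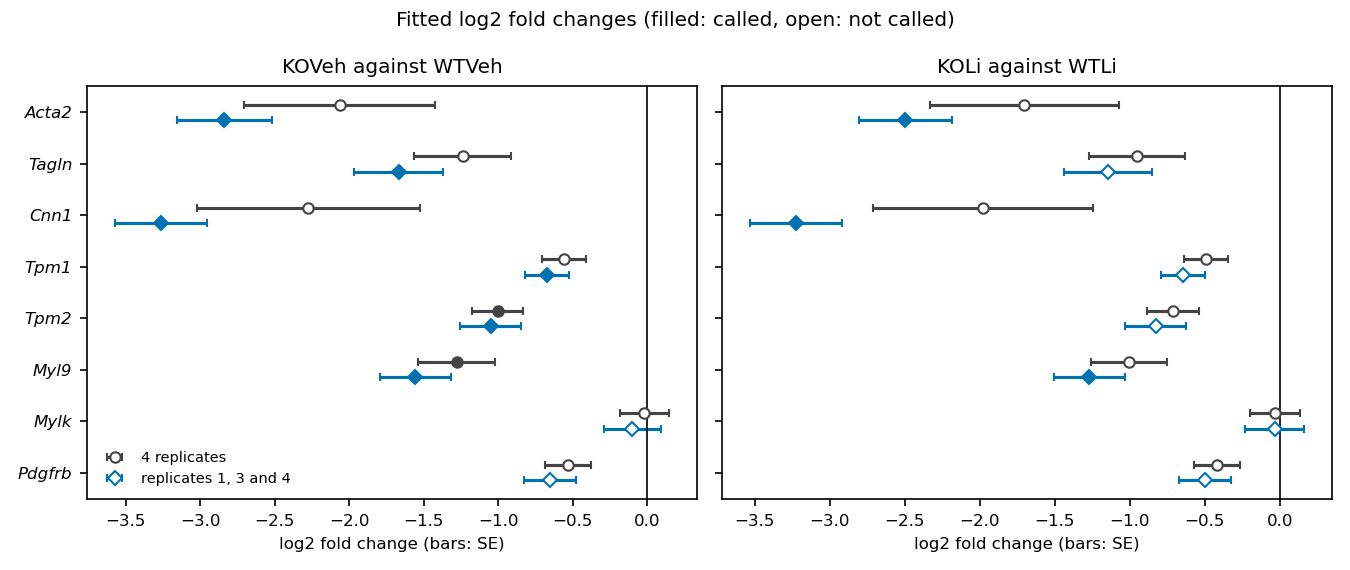
Fitted log2 fold change of the 8 tested genes, KOVeh against WTVeh on the left and KOLi against WTLi on the right. Circles use 4 replicates and diamonds replicates 1, 3 and 4, bars are SE, and filled symbols mark called genes. Acta2 stands at -2.06 over 4 replicates and -2.84 without replicate 2 on the left, and Mylk lies close to 0 in both panels.

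Since the Veh and Li libraries of one culture would not be independent, their counts were also summed and each culture counted once. By edgeR, 0 of 8 genes were then called, as was 0.0% of all 14783 genes, and 4518 genes had an unadjusted p under 0.05. Of the 8 genes, 7 had an unadjusted p under 0.05 and a lower KO level, against 16.8% of all genes, while DESeq2 called 4 of 8, against 6.2% of all genes called lower, and limma-voom called 0 of 8. Without replicate 2 the cultures gave 12 calls among all genes, 0.0812%, and Acta2 and Cnn1 were among them. Acta2 fell by 2.61 ± 0.09 and Cnn1 fell by 3.23 ± 0.16 on the log2 scale (SE; edgeR-adjusted p = 0.00481 for Acta2 and 0.00926 for Cnn1). These SEs rest on 3 KO and 3 WT cultures.

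Each KO culture was also set against the WT culture of its replicate number, as a difference of mean log2 CPM. For Acta2 the differences were -2.37, 0.56, -3.20 and -2.67 in replicates 1 to 4, and for Cnn1 they were -2.98, 0.57, -3.67 and -3.09. In replicates 1, 3 and 4, then, KO cultures held several times less of both transcripts, while the culture labelled KO replicate 2, in which Shank3 was near the WT level, held more. Myl9 differed by -0.96, -0.37, -1.23 and -1.98, and Tagln by -1.42, -0.19, -1.25 and -1.30. Tpm2 gave -0.58, -0.59, -1.24 and -0.96, with replicate 2 close to replicate 1. Tagln, Tpm1, Tpm2, Myl9 and Pdgfrb were lower in KO in every pair, 5 of 8 genes, against 21.1% of all tested genes. The median over the 8 genes was -0.77, -0.14, -1.24 and -1.13 in replicates 1 to 4, while that of all genes stayed between -0.02 and 0.00462.

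**Figure D3:**
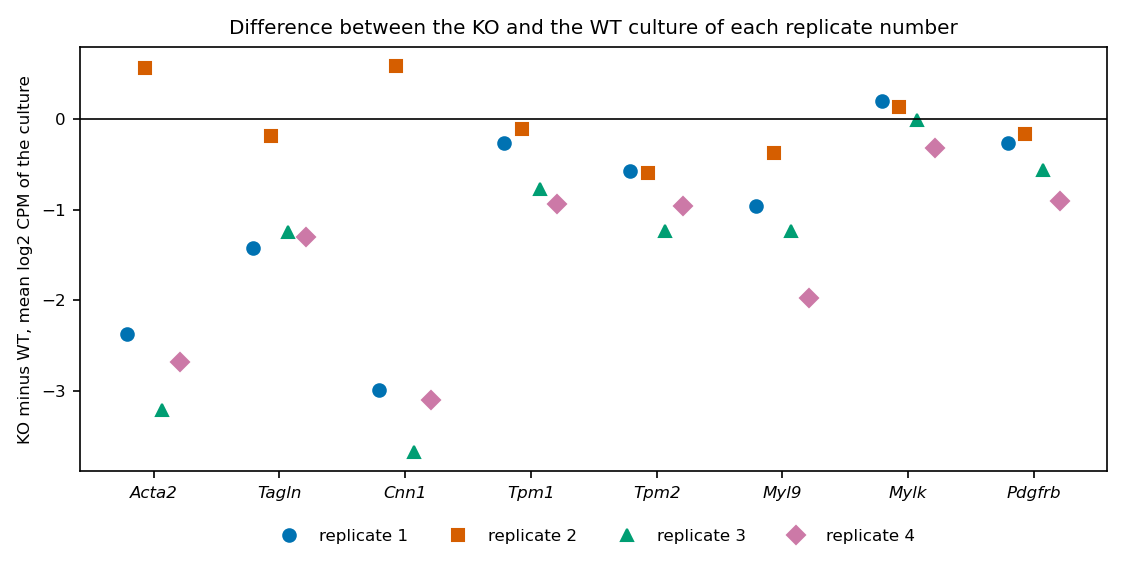
Difference in mean log2 CPM between the KO and the WT culture of each replicate number, for the 8 tested genes. One symbol stands for one pair of cultures and the line marks no difference. Acta2 and Cnn1 show 3 pairs at -2.37 or lower and the pair of replicate 2 above 0.

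None of the 8 genes passed the test for an effect of Li. The log2 fold changes of KOLi over KOVeh lay between -0.09 for Mylk and 0.71 for Cnn1, 0 of 8 were called, and 0.0% of all genes were called in either direction, with 225 genes at an unadjusted edgeR p under 0.05, none of them among the 8. For WTLi over WTVeh they lay between -0.07 for Mylk and 0.42 for Cnn1, again with 0 of 8 called and 0.0% of all genes, and with 217 genes at an unadjusted p under 0.05. DESeq2 and limma-voom called 0 of 8 in both. These comparisons use the same libraries as those of genotype. The difference between the effect of Li in KO and in WT cells was at most 0.36 ± 0.84 (SE), for Acta2, with 0.0% of genes called and 112 at an unadjusted p under 0.05. Single cultures moved further than these averages. Acta2 in KOLi over KOVeh was 1.06, 1.69, 4.56 and 1.17 times in replicates 1 to 4, and in WTLi over WTVeh 0.758, 1.90, 1.41 and 1.499 times. The Li library was the higher one in all 4 KO cultures for Acta2, Tagln, Tpm1, Tpm2 and Myl9, 5 of 8 genes, against 7.68% of all tested genes. These genes went up and down together, so they are not separate results. In all 4 WT cultures it was the higher one for Cnn1 (1.15, 2.12, 1.23 and 1.46 times) and Pdgfrb (1.05, 1.25, 1.17 and 1.06 times), and for no other tested gene of the set. The share of all genes was not taken for WT cultures. The fit over all groups does not pair the libraries of a culture, and its SE was 0.61 for Acta2 and 0.74 for Cnn1 in KO cells. With the KOLi and KOVeh libraries alone, where the replicate number pairs them, the log2 fold change was 0.65 ± 0.19 for Acta2 and 0.67 ± 0.28 for Cnn1 (SE; edgeR-adjusted p = 0.406 for Acta2 and 0.544 for Cnn1), and 0 of 8 genes were called.

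**Figure D4:**
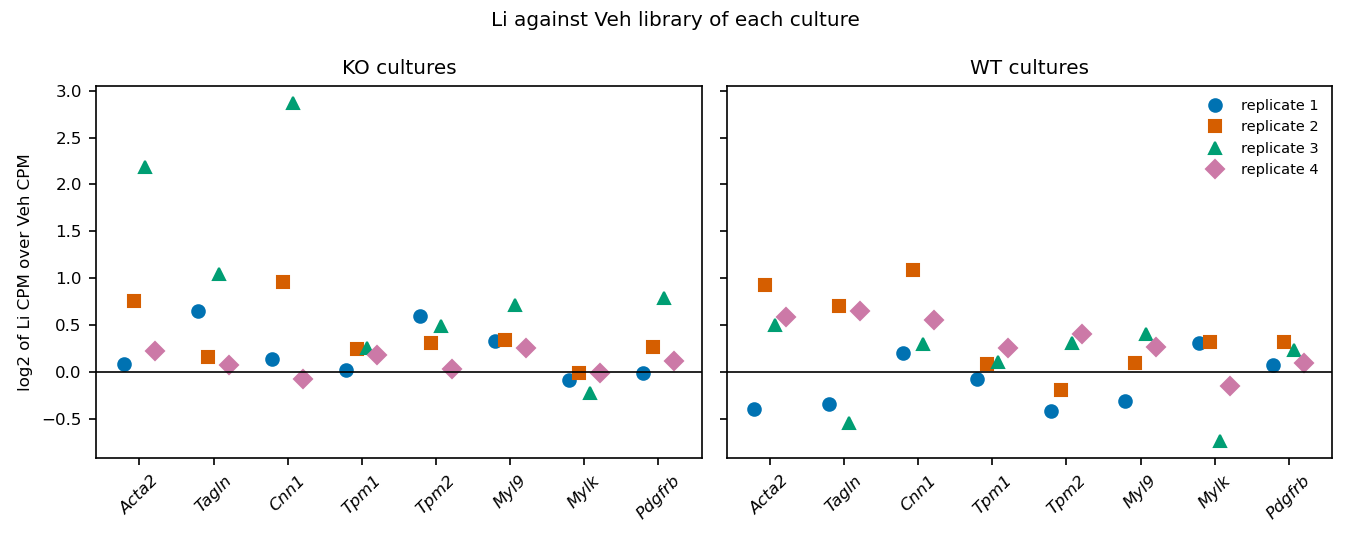
Log2 ratio of the Li library over the Veh library of each culture, KO cultures on the left and WT cultures on the right, for the 8 tested genes. Points are cultures and the line marks no change. In KO replicate 3 Acta2 was 4.56 times and Cnn1 7.32 times higher with Li, the Cnn1 ratio resting on 17 against 2 counts with an exact 95% counting interval of 1.74 to 65.3.

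Spread between libraries set Acta2 and Cnn1 apart from the other genes. The SD of log2 CPM over the 16 libraries was 1.73 for Acta2 and 1.88 for Cnn1, larger than that of 99.5% and 99.7% of all tested genes, whose median was 0.24. Myl9 followed with 0.81, Tagln with 0.79, Tpm2 with 0.52, Pdgfrb with 0.45 and Tpm1 with 0.40, while Mylk at 0.23 lay near the median of all genes. The SD of culture means of Acta2 was 1.91 among KO cultures, against 0.93 among WT cultures, and for Cnn1 2.04 among KO cultures, against 0.78 among WT cultures. This contrast rests on the culture labelled KO replicate 2, since with replicates 1, 3 and 4 the SD of Acta2 was 1.25 among KO and 1.13 among WT cultures, and that of Cnn1 was 1.14 among KO and 0.95 among WT cultures. Between the Veh and Li libraries of one culture the SD was 0.65 for Acta2 and 0.66 for Cnn1, smaller than between cultures over all 4 replicates. Among WT cultures the larger spread rests on replicate 4, the one of sequencing batch 2. Mean levels of WT cultures 1 to 4 were 45.7, 73.5, 49.7 and 187 CPM for Acta2, and 4.88, 6.60, 4.82 and 15.6 CPM for Cnn1. Within sequencing batch 1 alone these spreads were not compared.

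Most of the genes went up and down together. Over the 16 libraries, Pearson's r of log2 CPM between Acta2 and Cnn1 was 0.990, and 0.988 after group means were subtracted. Among Acta2, Tagln, Cnn1, Tpm1, Tpm2, Myl9 and Pdgfrb it ran between 0.773, for Tpm2 with Pdgfrb, and 0.990. After group means were subtracted the same pairs ran between 0.579, for Tagln with Tpm2, and 0.988. Mylk stood outside, with r between -0.07 for Tpm2 and 0.274 for Tpm1. The points share cultures, and these values are a description with no test.

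**Figure D5:**
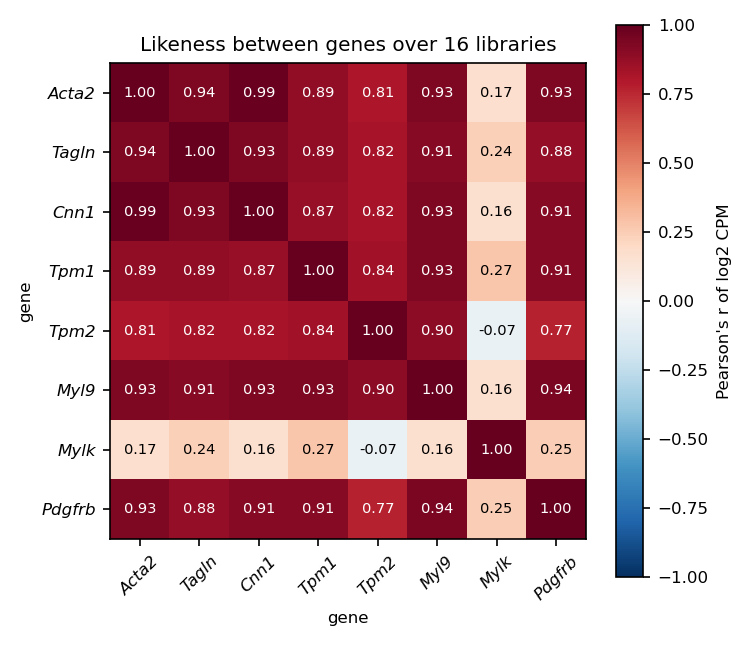
Pearson's r of log2 CPM between each pair of the 8 tested genes over 16 libraries, which come from 8 cultures. Red is positive and blue negative. The 7 genes other than Mylk reach r of 0.773 to 0.990 with each other, and Mylk does not pass 0.274.

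The genes outside the set whose level over the 16 libraries was most like the mean of the 8 tested genes (r of 0.973 to 0.981) were Cavin1, Amotl2, Ahnak, Plod2, Cnn2, Fstl1, Fmod, Ehd2, Lrrk1 and Ltbp2. Cavin1, a coat protein of caveolae, had a log2 fold change of -1.13 ± 0.22 in KOVeh against WTVeh (SE), with 66.4 ± 30.6 CPM in KOVeh and 139.5 ± 41.0 CPM in WTVeh (SD, n = 4 each). Of the 10 genes, Cavin1, Plod2, Fstl1, Ehd2 and Lrrk1 were called, but likeness was measured over libraries of both genotypes, so a lower KO level was largely built into the choice and these values are a description. Running most nearly the opposite way were Kcng1, Rtn3, Osbpl2, Alg2 and Smim13, with r between -0.968 and -0.956.

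Other genes of the contractile cell were read from lists. Of 14 tested further smooth muscle genes, 2 were called lower in KOVeh against WTVeh and 0 higher, with a median log2 fold change of -0.70. Over all tested genes 3.42% were called lower and 2.08% higher, which applies to each list below. Csrp1, a LIM protein, fell by 0.65 ± 0.10 on the log2 scale, and Hspb6, a small heat shock protein, fell by 0.72 ± 0.12 (SE; edgeR-adjusted p = 0.00291 for Csrp1 and 0.00295 for Hspb6). Lmod1, which nucleates actin filaments in smooth muscle, was at 2.27 ± 1.405 CPM in KOVeh and 4.52 ± 0.99 CPM in WTVeh (SD, n = 4 each; edgeR-adjusted p = 0.0368). Without replicate 2, 6 of the 14 were called lower, where 7.55% of all tested genes were, and this share too applies to each list below.

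Relatives of the 10 genes, listed as paralogs, had 5 of 19 tested genes called lower and 0 higher in KOVeh, with a median log2 fold change of -0.71. The non-muscle myosin heavy chains Myh9 and Myh14 fell by 0.75 ± 0.14 and 0.73 ± 0.12 on the log2 scale (SE; edgeR-adjusted p = 0.00569 for Myh9 and 0.00335 for Myh14). Among intermediate filaments related to desmin, vimentin (Vim) fell by 1.51 ± 0.25 and nestin (Nes) by 1.36 ± 0.19 (edgeR-adjusted p = 0.00325 for Vim and 0.00191 for Nes). The cytoplasmic actins of all cells had small differences, with a log2 fold change of -0.16 ± 0.05 for Actb and -0.09 ± 0.08 for Actg1, neither called. Without replicate 2, 9 of the 19 were called lower.

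Of the transcription factors of smooth muscle genes, 0 of 14 tested were called lower and 0 higher. Those with the smallest p over cultures were Elk1, Klf4, Tead1 and Mkl2. Their log2 fold changes in KOVeh against WTVeh were 0.26 ± 0.06, -1.17 ± 0.37, -0.35 ± 0.17 and 0.34 ± 0.13 (SE). The edgeR-adjusted p was 0.0173 for Elk1 and 0.0425 for Klf4. Srf was at 48.1 ± 6.3 CPM in KOVeh and 45.01 ± 10.8 CPM in WTVeh, and Mkl1, the gene of the cofactor MRTF-A, at 44.3 ± 3.8 CPM in KOVeh and 44.4 ± 3.2 CPM in WTVeh (SD, n = 4 each). Myocd, the gene of myocardin, had no count in 15 of 16 libraries. Among 9 tested targets shared by SRF and the MRTF proteins, 2 were called lower and 0 higher, with a median of -0.51. These were Ctgf and Cyr61, matricellular proteins that are also YAP targets, which fell by 1.71 ± 0.28 and 1.45 ± 0.26 on the log2 scale (SE; edgeR-adjusted p = 0.00315 for Ctgf and 0.00450 for Cyr61). Without replicate 2, 3 of the 14 transcription factors and 4 of the 9 targets were called lower.

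Of the 5 genes for PDGF ligands and the other PDGF receptor, 0 were called, with a median log2 fold change of -0.18. Pdgfb, the ligand of the receptor that Pdgfrb encodes, was at 47.8 ± 8.2 CPM in KOVeh and 52.0 ± 15.8 CPM in WTVeh (SD, n = 4 each). Of 9 tested pericyte markers, 2 were called lower and 0 higher, with a median of -0.46. Cspg4, the NG2 proteoglycan, which oligodendrocyte precursors also make, fell by 1.26 ± 0.23, and the adhesion molecule Mcam fell by 1.34 ± 0.26 (SE; edgeR-adjusted p = 0.00438 for Cspg4 and 0.00613 for Mcam). Rgs5, a pericyte regulator of G protein signalling, had a log2 fold change of 0.72 ± 0.30 (edgeR-adjusted p = 0.106). Without replicate 2, 3 of the 9 pericyte markers and 0 of the 5 PDGF genes were called lower. In the fit over cultures 0 genes of any list described here were called.

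Markers of other cells moved with the set in part. The summed level of the 10 meningeal fibroblast markers was 733 to 1109 CPM in KOVeh libraries, against 1201 to 1523 CPM in WTVeh libraries. Of these 10 genes, 4 were called lower (Col1a1, Col1a2, Ptgds and Fbln1) and 0 higher. Lum alone of the list was above 0, with a log2 fold change of 0.32. Dcn at -0.12 and Slc6a13 at -0.21 were not called either, so the list did not fall as a whole. For the 10 endothelial markers, of which 7 were tested and 0 called, the sum was 51.3 to 143 CPM in KOVeh, against 102 to 166 CPM in WTVeh, while Cldn5 had no count in 8 of 16 libraries. Most of that sum came from Slc2a1, Cdh5 and Kdr, whereas the low-level Pecam1, Emcn and Esam had log2 fold changes of 0.21, 0.45 and 0.34, none called. The 6 markers of ependyma and choroid plexus summed to 49.02 to 256 CPM in KOVeh, against 113 to 284 CPM in WTVeh, with 0 called. The library labelled KOVeh replicate 2 had the highest of the 4 KOVeh sums in all 3 lists. This was not particular to them. The same library also had the highest pericyte, astrocyte, oligodendrocyte and microglial sums and the lowest neuronal sum. It did not have the highest sum for oligodendrocyte precursor or striated muscle genes. The 8 neuronal markers summed to 4793 to 6885 CPM in KOVeh, against 4015 to 5734 CPM in WTVeh, and 2 were called higher (Snap25 and Map2). The 8 astrocyte markers summed to 4261 to 8288 CPM in KOVeh, against 5009 to 8070 CPM in WTVeh, and 1 was called higher (Slc1a2) and 0 lower. Their median log2 fold change was -0.26, with Gfap lowest at -0.75 (edgeR-adjusted p = 0.0183) and Slc1a2 highest at 0.54. Across the 16 libraries the log2 sum of each list was set against the mean of the 8 tested contractile and mural genes. Pearson's r was 0.938 for endothelial, 0.875 for ependymal and choroid plexus, 0.831 for pericyte and 0.827 for meningeal fibroblast markers. It was 0.534 for oligodendrocyte, 0.416 for astrocyte, 0.343 for oligodendrocyte precursor, 0.221 for striated muscle, 0.195 for microglial and -0.948 for neuronal markers. Of 8 tested striated muscle genes 0 were called, and of the microglial list 0 of 7. In the oligodendrocyte list 1 of 6 was called lower (Cnp), and in the precursor list 1 of 5 (Cspg4). Without replicate 2 the lower calls numbered 7 of 10 for meningeal fibroblast, 3 of 6 for ependymal and choroid plexus and 1 of 7 for endothelial markers. The part of these cell types in the levels of the contractile genes was not tested.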

How the data were processed

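RNA of 16 samples, counted as 8 cultures, was sequenced at a service provider. Per the submitters' processing notes, reads were aligned to GRCm38.p6 by HISAT2 2.0.5 and the authors deposited raw counts per gene made by featureCounts 1.5.0-p3, in 2 count tables, 1 for each sequencing batch. Whether counting used strand is not stated by any source used here. The tables also hold the authors' gene lengths, used for CPM per kilobase.

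Counts were joined by gene identifier. Genes of the biotypes the study kept (33134) were filtered by filterByExpr (minimum count 15, minimum proportion 0.25), which left 14783, and scaled by TMM. The quasi-likelihood test of edgeR 4.0.16 (R 4.3.3) was fitted to group and replicate number, with Benjamini-Hochberg adjustment over all tested genes. The study's thresholds for a call were kept (adjusted p under 0.01, fold over 1.2). The replicate number of the titles was taken as the study's experimental batch and as marking the culture that a Veh and a Li library share. Deviations from group means of same-numbered KOVeh and WTVeh libraries correlated with r of 0.224 to 0.557. SE is the log2 fold change divided by the root of F. DESeq2 1.42.0 and limma 3.58.1 were alternatives. Other settings tried were other scalings and filters, fits without the replicate number or with subsets of libraries, and leaving out single libraries. The code was tested on simulated data. Log2 CPM used a prior count of 2.

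The 10 genes and all lists were chosen with earlier results of these data known. Named were the 10 genes, up to 4 genes of a list with the smallest p over cultures, and the genes most and least like the set. A list of genes that act on myosin phosphorylation is not reported here. Also named after seeing values were Lmod1, Actb, Actg1, Srf, Mkl1, Myocd, Rgs5, Vtn, Kcnj8, Higd1b, Cox4i2, Atp13a5, Abcc9, Cldn5, Pecam1, Esam, Lum, Dcn, Slc6a13 and the overlapping Pcsk7. The day of culture in the labels runs from 14 to 29 down the samples, and 14 days, given in the study's design, was used. Nothing says that replicates are separate litters, so p-values apply to these cultures only. In the fit over all groups each library enters singly, so its p-values mix spread within cultures with spread between them. The p-values from summed counts, with each culture counted once, rest on spread between cultures. Counting intervals and limits cover counting error only.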

Additional observations from a re-analysis of the deposited data

Results flagged for a closer look

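Of 40 groups of 4 libraries examined, 10 genes in 4 groups, 5 held a library far from the other 3 by Dixon's test, which flags about 1 group in 20 by chance. Acta2 was at 149.8 CPM in WTVeh replicate 4, with the next WTVeh library at 52.0 CPM. Cnn1 was at 12.7 CPM in the same library, with the next at 4.53 CPM, and Myh11 at 0.890 CPM, with the next at 0.323 CPM. Of the KOLi libraries, that labelled replicate 2 held Cnn1 at 12.9 CPM, with the next KOLi library at 1.67 CPM, and Myl9 at 34.0 CPM, with the next at 16.9 CPM. The first is the replicate of sequencing batch 2, and the second is a library in which Shank3 is not reduced to the level of the other KO libraries. Their part in these values was not tested.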

How the results depend on the processing

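Counts of all genes called by edgeR were 813 for KOVeh against WTVeh, 940 for KOLi against WTLi and 0 for KO against WT cultures. For KOVeh against WTVeh they became 1891 with DESeq2, 2873 at an adjusted p under 0.05 with no fold limit, 1647 with replicates 1, 3 and 4 only, 15 in sequencing batch 1 alone, 0 with sequencing batch in place of the replicate number, 1 with the compared groups only, 513 with culture as a random effect in limma-voom and 51 to 1291 on leaving out 1 library. For KOLi against WTLi they became 2047, 3222, 1767, 10, 0 and 0 under the first 6 of these settings, and 123 to 992 on leaving out 1 library. For cultures they were 1509 with DESeq2, 569 at an adjusted p under 0.05, 12 with replicates 1, 3 and 4 only and 0 to 12 without 1 culture. Leaving out both libraries labelled KO replicate 2, a choice made after seeing the data, gave 1947 calls for KOVeh against WTVeh and 2487 for KOLi against WTLi. The cause of these changes was not tested.

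Without the replicate block the counts were 0 for KOVeh against WTVeh and 0 for KOLi against WTLi, and the log2 fold change of KOVeh over WTVeh was -1.33 for Acta2 and -1.52 for Cnn1. Same-numbered libraries deviated together in every pairing of groups except WTVeh with KOLi in replicate 1 (r of -0.0386), so not every pair reached the limit of 0.1.

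Directions that turned were those of values near 0 or with wide SE. Mylk in KOVeh against WTVeh was 0.000388 with RLE scaling, 0.0023 with all biotypes, 0.14 in sequencing batch 1 and 0.023 with the compared groups only, and in batch 1 it was 0.072 for KOLi against WTLi and 0.089 for cultures. For WTLi against WTVeh, Tagln was -0.018 with replicates 1, 3 and 4 and -0.14 in batch 1, and Tpm2 was -0.078 in batch 1. For the difference of the Li effects, Cnn1 was -0.15 with limma-voom, -0.12 with culture as a random effect and -0.14 without the libraries labelled KO replicate 2, and Mylk was 0.065 with replicates 1, 3 and 4.

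Leaving out 1 library turned the direction for Mylk in KOVeh against WTVeh (-0.13 to 0.14), in KOLi against WTLi (-0.16 to 0.046) and in cultures (-0.099 to 0.093). In KOLi against KOVeh the ranges were -0.17 to 1.43 for Acta2 and -0.67 to 1.68 for Cnn1, lowest without KOLi replicate 2 and highest without KOVeh replicate 2. In WTLi against WTVeh they were -0.075 to 0.62 for Acta2, -0.16 to 0.29 for Tagln, -0.019 to 0.77 for Cnn1, -0.040 to 0.19 for Tpm1, -0.10 to 0.20 for Tpm2, -0.13 to 0.30 for Myl9 and -0.21 to 0.071 for Mylk. For the difference of the Li effects they were -0.51 to 1.09 for Acta2, -1.12 to 1.24 for Cnn1, -0.045 to 0.21 for Tpm1, -0.16 to 0.12 for Mylk and -0.025 to 0.24 for Pdgfrb. The lower levels of Acta2, Tagln, Cnn1, Tpm1, Tpm2, Myl9 and Pdgfrb in KO kept their direction under every setting tried, in both treatments and in cultures. Low counts limit Tagln, Cnn1, Myh11 and Des.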
